A study of Homo sapiens with 10 samples.

Results

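Aminoacyl-tRNA synthetases join each amino acid to its tRNA before the tRNA enters the ribosome. Human cells translate in the cytosol and, separately, in mitochondria, and most amino acids have a synthetase for each place, both encoded in the nucleus. Several cytosolic synthetases assemble with the scaffold proteins AIMP1, AIMP2 and EEF1E1 into a multisynthetase complex. When uncharged tRNA builds up, the kinase GCN2 (gene EIF2AK4) phosphorylates the initiation factor eIF2, the transcription factor ATF4 is translated, and genes for amino acid synthesis, uptake and tRNA charging are known targets of it. ATF4 binds with a C/EBP partner at a composite element in many of these promoters.

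The members were chosen by gene symbol. Of 36 listed synthetase genes, 35 had a row among the 40664 gene rows of the count table; IARS1 was not analysed here. Of the 35, 33 had enough counts to be tested, among 13990 tested genes in all. Names ending in 1, A or B were taken as cytosolic, which gave 19 listed and 17 tested genes, and names ending in 2 as mitochondrial, which gave 16 listed and 15 tested genes. TARS3, a threonyl-tRNA synthetase paralogue, belonged to neither set. GARS1 and KARS1 are known to encode both a cytosolic and a mitochondrial form, so the division by name is not complete for them.

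The RNA came from hTERT RPE-1, telomerase-immortalised human cells of retinal pigment epithelial origin, cultured on substrates of 10 kPa (soft) or 120 kPa (stiff). The 4 groups were control at 10 kPa with 2 libraries, siNemp1 at 10 kPa with 2, control at 120 kPa with 3, and siNemp1 at 120 kPa with 3. siNemp1 is the labels' name for small interfering RNA treatment, here read as targeting NEMP1, a protein of the inner nuclear membrane. All groups were this line, and the treatment of the control cells is not stated in the labels. Nothing in the labels shows that the libraries of a group came from separate cultures, so each p-value reflects the variation among these libraries alone, which may be technical.

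Libraries held between 17949807 and 23797713 estimated counts. NEMP1 lay at 14.0 to 18.3 CPM (counts per 1000000 counts of the library after TMM scaling) in the 5 control libraries and at 4.11 to 8.22 CPM in the 5 siNemp1 libraries, with no overlap. The keratins KRT8 and KRT18 averaged 1078 and 619 CPM, whereas the epithelial genes CDH1 and EPCAM and the pigment epithelium genes RPE65, RLBP1 and TYR were at or near 0; of the pigment epithelium list, BEST1, MITF and OTX2 averaged 72.1, 123 and 26.3 CPM. Replicates agreed less closely at 120 kPa than at 10 kPa: the mean chi-square per gene between libraries of a group was 2.66 and 6.67 at 10 kPa and 21.8 to 96.4 at 120 kPa. The 2 libraries numbered 3 at 120 kPa stood farthest from those numbered 1. For some of the medians and differences that rest on them, a value without 1 or both of them, or with the replicate number as a block, is given. For others no such value is given. The share of counts from the mitochondrial genome was 1.48% to 1.6% at 10 kPa, 1.73%, 1.4% and 0.913% in control libraries 1 to 3 at 120 kPa, and 1.06%, 0.826% and 0.709% in siNemp1 libraries 1 to 3. In bulk RNA, fewer cells of a type and less RNA per cell cannot be told apart.

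Promoter windows (250 bases before to 50 after a gene's start, RefSeq, GRCh38.p14) were matched for 30 of the 36 members by symbol, and not for AARS2, LARS1, TARS3, VARS1, VARS2 and YARS1. The composite C/EBP-ATF element was searched as TGATGNAA on both strands. It was present in 7 of 16 cytosolic promoters (AARS1, CARS1, GARS1, IARS1, MARS1, NARS1 and TARS1) and in 1 of 14 mitochondrial promoters (YARS2), against 4.46% of all 27305 symbols with a window of this length. The sites of the 6 tested members whose window held it are shown because 5 of them are cytosolic and 4 of those return below among the genes highest in the libraries numbered 3. Each is printed 5′ to 3′ on the gene's own strand with 10 flanking bases on each side, and capitals mark the match.
TARS1, chr5:33440957-33440984, plus strand: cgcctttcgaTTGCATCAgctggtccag
GARS1, chr7:30594835-30594862, plus strand: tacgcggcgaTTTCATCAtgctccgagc
MARS1, chr12:57488054-57488081, plus strand: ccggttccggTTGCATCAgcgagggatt
AARS1, chr16:70289676-70289703, minus strand: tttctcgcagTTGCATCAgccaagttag
NARS1, chr18:57621805-57621832, minus strand: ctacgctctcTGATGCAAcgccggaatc
YARS2, chr12:32756077-32756104, minus strand: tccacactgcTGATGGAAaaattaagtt

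The letters TTGCATCA recur in TARS1, MARS1 and AARS1, and NARS1 carries the same element in the opposite orientation. FARSA and WARS1, described below with these genes, had no match, which says only that these letters were not in the window searched. A match is a description of the sequence and not evidence of binding.

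SARS1, the gene that the comparisons below return to most often, had no match to that element. Its 250 bases before the RefSeq start used here, at chr1:109213643-109213892 on the plus strand, end in GCGCCTGCGC (capitals). This is a match to the NRF1 motif, searched on both strands as GCGC, any base, then TGCGC. Another SARS1 window held a match beginning 35 bases before its own start, so the distance depends on the start chosen. NRF1 is a factor at many promoters of mitochondrial and housekeeping genes. The motif was in 3 of 16 cytosolic and 3 of 14 mitochondrial promoters and in 6.98% of all symbols.
SARS1: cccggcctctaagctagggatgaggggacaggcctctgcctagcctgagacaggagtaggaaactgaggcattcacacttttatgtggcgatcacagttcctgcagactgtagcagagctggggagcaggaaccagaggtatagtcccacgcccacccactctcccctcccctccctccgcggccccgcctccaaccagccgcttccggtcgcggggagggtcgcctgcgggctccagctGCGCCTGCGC

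HARS1 and HARS2, the cytosolic and mitochondrial histidyl-tRNA synthetases, are transcribed in opposite directions from neighbouring RefSeq starts. The 84 bases between those starts, chr5:140691371-140691454 on the plus strand, held the ETS motif CCGGAAGT (capitals, searched on both strands) near each end. That motif was in 5 of 16 cytosolic and 3 of 14 mitochondrial promoters and in 4.95% of all symbols.
HARS1 and HARS2: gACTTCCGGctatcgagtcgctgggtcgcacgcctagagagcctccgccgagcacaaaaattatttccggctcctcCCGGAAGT

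HARS1 lay at 199 and 199 CPM in control and 221 and 213 CPM in siNemp1 at 10 kPa, at 192, 215 and 214 CPM in control at 120 kPa, and at 209, 194 and 202 CPM in siNemp1 at 120 kPa. HARS2 lay in the same order at 52.6 and 51.7, then 53.4 and 63.7, then 60.7, 51.7 and 46.7, and then 59.3, 48.3 and 44.6 CPM. At 120 kPa the libraries numbered 3 were the lowest for HARS2 in both treatments, which was not so for HARS1.

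Cytosolic synthetase transcripts were more abundant than mitochondrial ones per length of transcript. Across libraries the median cytosolic member lay at 47.3 to 74.5 CPM per kb and the median mitochondrial member at 7.95 to 11.6 CPM per kb, a ratio of 4.89 to 9.37. The cytosolic gene had the higher mean in all 11 same-amino-acid pairs, and the lowest ratio in any library was 1.51, for TARS1 over TARS2. The median ratio over the 10 libraries ran from 1.68 for TARS1 over TARS2 and 2.58 for RARS1 over RARS2 to 16.7 for SARS1 over SARS2 and 46.3 for MARS1 over MARS2.

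**Figure D1:**
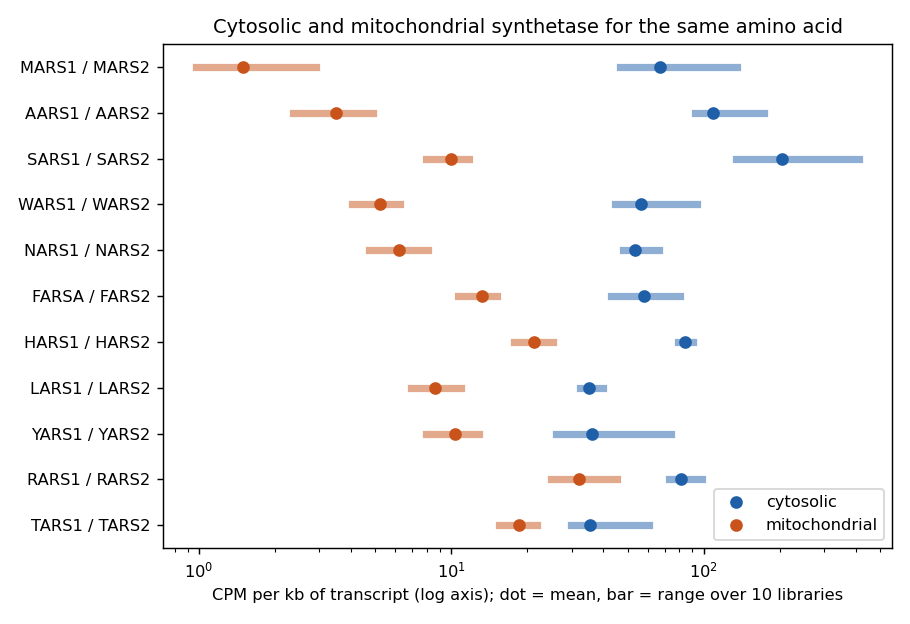
Level of the cytosolic (blue) and mitochondrial (orange) synthetase for 11 amino acids in CPM per kb of transcript, on a log axis; dots are means and bars the range over 10 libraries. The cytosolic mean lies to the right in every pair, and MARS1 and MARS2 have the widest gap in median ratio (46.3).

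Among cytosolic members the highest means were 204 CPM per kb for SARS1, which charges serine, 129 for KARS1, which charges lysine, and 109 for AARS1, which charges alanine. Among mitochondrial members they were 32.1 CPM per kb for RARS2 (arginine), 21.2 for HARS2 (histidine) and 18.6 for TARS2 (threonine). KARS1 lay at 241 and 239.5 CPM in control and 248 and 268 CPM in siNemp1 at 10 kPa, and at 267, 230.4 and 246 CPM in control and 304.7, 270.7 and 265 CPM in siNemp1 at 120 kPa. Among members not given by library below, FARSB ranged from 92.4 to 122 CPM, LARS1 from 154 to 189.6, NARS1 from 149 to 205, RARS1 from 156 to 210.6, PARS2 from 16.2 to 23.0 and CARS2 from 5.02 to 12.4 CPM.

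The valyl-tRNA synthetases and one cysteinyl-tRNA synthetase were listed at or near 0. VARS2, the mitochondrial gene at chr6:30908242-30926459, was listed at 0 in all 10 libraries, and CARS1 at 0 in 8 of them with at most 8.01 estimated counts. VARS1, at chr6:31777518-31795953, passed the filter with 0 to 2.64 CPM and was listed at 0 in 2 libraries. Every dividing cell charges valine and cysteine, so these values are given as listed and not read as levels. VARS1 nevertheless stands among the 17 tested cytosolic members in the medians and counts of direction given here. TARS3 (2.41 to 5.50 CPM) and MARS2 (2.94 to 8.78 CPM) were also low.

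At 120 kPa, siNemp1 libraries held more SARS1 and RARS2 transcript than the control library of the same number, and less LARS2, in all 3 pairs. SARS1 (ENSG00000031698, chr1:109213918-109238169 in GENCODE 29, GRCh38) lay at 278, 335 and 523 CPM in control libraries 1 to 3 and at 360.4, 437 and 766 CPM in siNemp1 libraries 1 to 3. The groups overlapped, because control library 3 lay above siNemp1 libraries 1 and 2, but within pairs the log2 difference was 0.37, 0.38 and 0.55. In the fit of all libraries the log2 difference was 0.46 ± 0.28 (SE), with an adjusted p of 0.435 (edgeR quasi-likelihood test, Benjamini-Hochberg over all tested genes). It was 0.046 (adjusted p = 0.94, edgeR) without siNemp1 library 3 and 0.75 (adjusted p = 0.142) without control library 3. With the replicate number as a block it was 0.44 ± 0.095 (SE), adjusted p = 0.0198, so the call rests on treating same-numbered libraries as pairs. Without pair 2 or pair 3 the blocked adjusted p was 0.084 and 0.0961.

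**Figure D2:**
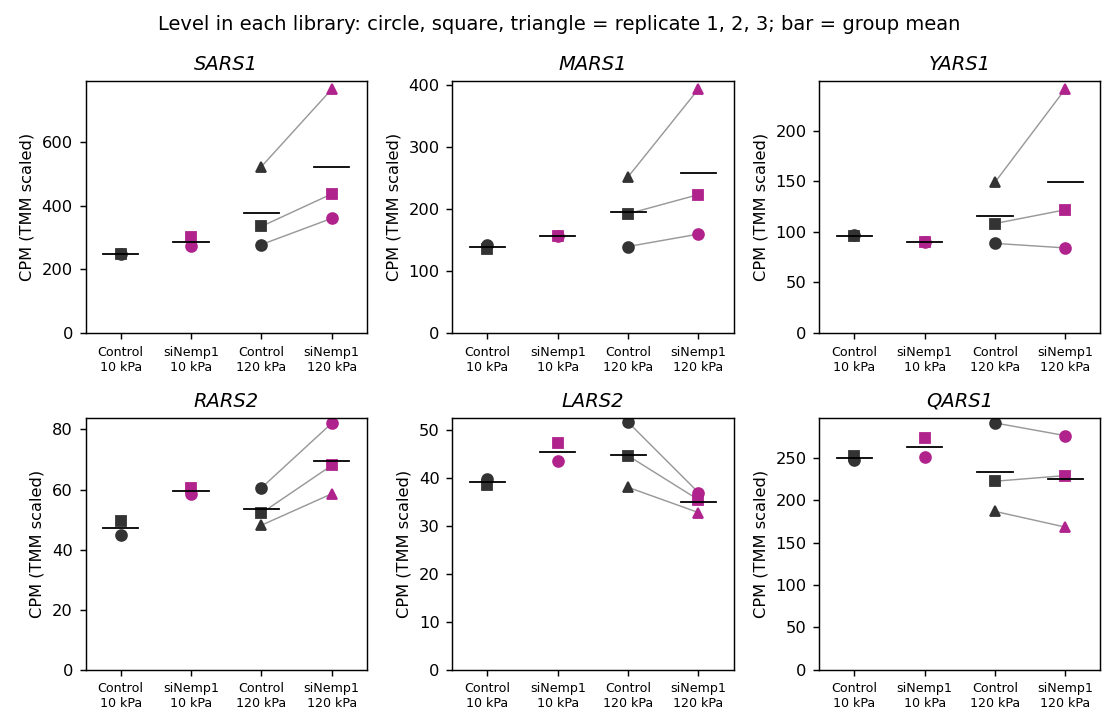
CPM of 6 members in each library by group, with the y axis from 0; grey lines join same-numbered libraries at 120 kPa. All 3 lines slope upward for SARS1 and RARS2 and downward for LARS2, while SARS1, MARS1 and YARS1 are highest, and RARS2, LARS2 and QARS1 lowest, in the triangles of both treatments.

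RARS2, which charges arginine in mitochondria, lay at 60.5, 52.1 and 48.1 CPM in control and at 82.0, 68.0 and 58.6 CPM in siNemp1 libraries 1 to 3 at 120 kPa. Only the lowest siNemp1 library lay below the highest control library. Its log2 difference was 0.38 ± 0.14 (SE), adjusted p = 0.201 by edgeR, and 0.37 ± 0.11 (SE), adjusted p = 0.0544, with the block; it passed with the block in the 120 kPa libraries alone (adjusted p = 0.0499).

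LARS2, the mitochondrial leucyl-tRNA synthetase, lay at 51.6, 44.6 and 38.0 CPM in control and at 36.9, 35.4 and 32.7 CPM in siNemp1. The groups did not overlap, yet the log2 difference of -0.35 ± 0.13 (SE) did not pass by edgeR (adjusted p = 0.185, and 0.0616 with the block). NARS2 (asparagine) and WARS2 (tryptophan) were the other members without overlap, both higher in siNemp1: NARS2 at 15.6, 13.9 and 15.8 against 20.4, 18.1 and 18.5 CPM, and WARS2 at 13.9, 13.4 and 11.3 against 16.9, 14.96 and 17.5 CPM. The share of all genes without overlap was 10.9% for higher and 6.95% for lower values, against 2 and 1 of 33 members. SARS2, the mitochondrial seryl-tRNA synthetase, lay at 18.4, 22.6 and 24.3 CPM in control and 17.5, 18.4 and 16.4 CPM in siNemp1, a log2 difference of -0.32 ± 0.14 (SE) that did not pass (adjusted p = 0.289, edgeR).

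As a set, 0 of 33 members passed at 120 kPa when all libraries were fitted (0% of all genes tested), and 6 had an unadjusted p under 0.05 (17.2% of all genes). All 6 were mitochondrial: MARS2, NARS2, RARS2 and WARS2 with higher values, LARS2 and SARS2 with lower ones. DESeq2 called no member, with 642 genes called, or 2.73% of 23537; it gave no adjusted p for MARS2, TARS3 and VARS1. With the block 1 of 33 members passed, against 8.75% of all genes, so the members were called no more often than genes in general. The median log2 difference was 0.11 over 17 cytosolic members, of which 12 were above 0, and 0.063 over 15 mitochondrial members, of which 9 were above 0; over all genes it was 0.0064, with 50.8% above 0. Without siNemp1 library 3, but with control library 3 kept, the cytosolic median was -0.067. With the block over all libraries it was 0.078.

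Same-numbered pairs separated the sets in another way. In all 3 pairs, siNemp1 was higher for 5 cytosolic members (KARS1, MARS1, RARS1, SARS1 and TARS1) and for 7 mitochondrial members (FARS2, MARS2, NARS2, PARS2, RARS2, WARS2 and YARS2). It was lower in all 3 pairs for 6 members, all mitochondrial (EARS2, HARS2, IARS2, LARS2, SARS2 and TARS2). Over all genes 25.1% were higher and 21.8% lower in all 3 pairs. By sign alone mitochondrial synthetases thus split in direction, though some differences were small. In pairs 1 to 3 the log2 difference was -0.066, -0.0092 and -0.093 for IARS2 and 0.041, 0.10 and 0.10 for FARS2. Summed over the set, mitochondrial members came to 482, 469 and 431 CPM in control and 493, 466 and 433 CPM in siNemp1 libraries 1 to 3.

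**Figure D3:**
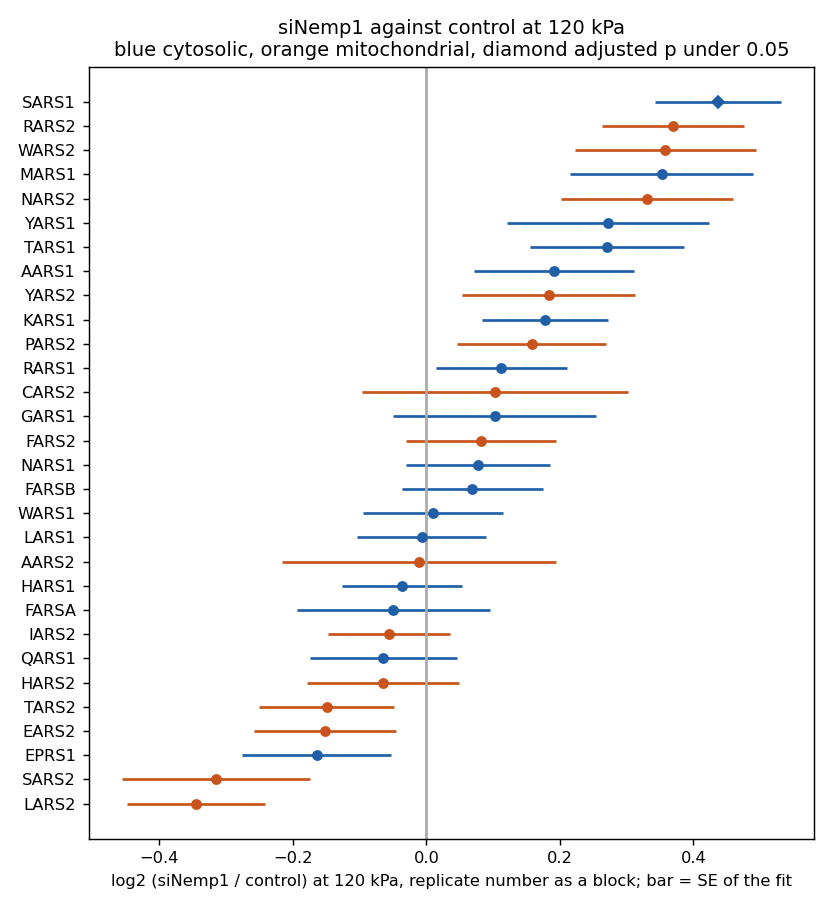
Log2 difference of siNemp1 over control at 120 kPa with the replicate number as a block, for the 30 members with a mean of at least 5 CPM; bars are the SE of the fit, blue is cytosolic and orange mitochondrial. SARS1 (0.44) is the one diamond, with an adjusted p under 0.05, and mitochondrial members range from LARS2, the lowest at -0.34, to RARS2 at 0.37.

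MARS1, the methionyl-tRNA synthetase of the complex, lay at 139.6, 192 and 252 CPM in control and 159.6, 223 and 394 CPM in siNemp1 libraries 1 to 3 at 120 kPa. Its log2 difference of 0.41 ± 0.29 (SE) was -0.051 without siNemp1 library 3, a fit that kept control library 3. Within pairs 1 to 3 the log2 difference was 0.19, 0.21 and 0.64. With the block it was 0.35 ± 0.14 (SE), which did not pass (adjusted p = 0.137, edgeR). MARS1 overlaps the annotated end of DDIT3 on the opposite strand (chr12:57475445-57517569 and chr12:57516588-57521737), and without strand information reads in the overlap cannot be told apart. DDIT3, an amino acid response gene, lay at 49.4, 81.0 and 143 CPM in control and 62.3, 90.2 and 236 CPM in siNemp1. EPRS1, the bifunctional glutamyl-prolyl-tRNA synthetase, lay at 254 and 262 CPM in control and 248 and 267 CPM in siNemp1 at 10 kPa. At 120 kPa it lay at 309, 250.1 and 250.2 CPM in control and 237, 221 and 264 CPM in siNemp1, a log2 difference of -0.16 ± 0.12 (SE).

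Among 24 genes that process, carry or scaffold tRNAs and synthetases, 23 were tested and 19 had higher values in siNemp1 at 120 kPa, with a median log2 difference of 0.18, where 50.8% of all genes were above 0. None passed in the fit of all libraries. With the block 2 of 23 passed, a share close to the 8.75% of all genes called in that fit. AIMP2, a scaffold of the multisynthetase complex, lay at 33.2, 43.0 and 69.8 CPM in control and 49.2, 53.0 and 105 CPM in siNemp1 (log2 0.48 ± 0.10 SE, adjusted p = 0.0196, edgeR with the block). EEF1A1, the elongation factor that carries charged tRNAs to the ribosome, lay at 12139, 11159 and 13494 CPM in control and 19815, 18084 and 15850 CPM in siNemp1 (log2 0.55 ± 0.12 SE, adjusted p = 0.0201, edgeR with the block). DESeq2 also called EEF1A1 (adjusted p = 0.00273). When 1 pair was left out of the blocked fit, AIMP2 was called only without pair 1, and EEF1A1 only without pair 1 or pair 3. EEF1A1 has many processed copies in the genome, which makes its estimate uncertain.

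At 10 kPa the same 2 members, SARS1 and RARS2, had higher values in siNemp1, though the call again depended on the fit. SARS1 lay at 248 and 248 CPM in control and 273 and 301 CPM in siNemp1. RARS2 lay at 44.9 and 49.5 CPM in control and 58.6 and 60.6 CPM in siNemp1. Neither gene's groups overlapped.

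When all libraries were fitted, 0 of 33 members passed at 10 kPa (0% of all genes), and no member had an unadjusted p under 0.05, against 6.08% of all genes. DESeq2 also called no member, and 0.0722% of all genes. In the fit of the 4 libraries at 10 kPa alone, RARS2 (log2 0.32 ± 0.075 SE, adjusted p = 0.004) and SARS1 (log2 0.20 ± 0.058 SE, adjusted p = 0.019) rose by edgeR's quasi-likelihood test. That fit called 17.3% of the genes it tested, 1081 higher and 1227 lower, against which 2 of 33 members is a smaller share. It estimates the spread from the 10 kPa libraries only, which differed less from each other than those at 120 kPa. Groups did not overlap for 17 members with higher and 4 with lower values, where 28.8% and 28.5% of all genes did so.

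Among members averaging 5 CPM or more, the other largest differences at 10 kPa were those of FARS2 and WARS2 upward and AARS2, FARSA and GARS1 downward, and none of the 5 passed in any of these fits. FARS2, the mitochondrial phenylalanyl-tRNA synthetase, lay at 22.2 and 18.0 CPM in control and 24.4 and 23.84 CPM in siNemp1. WARS2 lay at 13.7 and 12.5 CPM against 15.8 and 15.8 CPM. AARS2, the mitochondrial alanyl-tRNA synthetase, lay at 14.1 and 13.4 CPM against 12.4 and 10.1 CPM. At 120 kPa AARS2 ran from 9.10 to 17.3 CPM in control and from 9.19 to 18.9 CPM in siNemp1, and FARS2 from 19.7 to 24.9 and from 21.2 to 25.7 CPM, so the groups of both genes overlapped there.

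FARSA, a subunit of cytosolic phenylalanyl-tRNA synthetase, lay at 95.9 and 103 CPM against 95.1 and 84.7 CPM at 10 kPa, and at 78.0, 121 and 146 against 85.3, 118 and 125 CPM at 120 kPa. GARS1, which charges glycine, lay at 124 and 124 CPM against 118 and 110.0 CPM. The median log2 difference was 0.070 over cytosolic and 0.069 over mitochondrial members and -0.0018 over all genes, with 11 of 17 and 11 of 15 members above 0.

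The knockdown was also averaged over both stiffnesses, a comparison chosen after the data were seen. No member passed in the fit of all libraries (1.29% of all genes). With the block SARS1 (log2 0.32 ± 0.075 SE, adjusted p = 0.0241) and RARS2 (log2 0.35 ± 0.084 SE, adjusted p = 0.0269) rose by edgeR, where 10.8% of all genes were called.

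The difference between the knockdown effects at the 2 stiffnesses passed for 0 of 33 members (0.00715% of all genes). At an unadjusted p under 0.05 stood LARS2 (log2 -0.57 ± 0.20 SE) and MARS2 (log2 1.09 ± 0.49 SE), both with an adjusted p of 1 by edgeR, against 1.68% of all genes. DESeq2 called no member and 0.0127% of all genes. LARS2 was higher in siNemp1 at 10 kPa, with 43.5 and 47.3 CPM against 39.8 and 38.5 CPM, and lower at 120 kPa. MARS2, the mitochondrial methionyl-tRNA synthetase, lay at 5.20 and 3.51 CPM in control and 3.27 and 3.53 CPM in siNemp1 at 10 kPa, and at 2.94, 3.36 and 4.76 against 4.03, 5.62 and 8.78 CPM at 120 kPa. YARS2, the mitochondrial tyrosyl-tRNA synthetase, lay at 21.8 and 18.6 CPM in control and 21.1 and 16.8 CPM in siNemp1 at 10 kPa, and at 18.7, 21.2 and 26.4 against 25.9, 21.9 and 27.3 CPM at 120 kPa. The differences for YARS1, AARS2 and YARS2 upward and for SARS2 and HARS2 downward lay between -0.34 and 0.47 on the log2 scale with SEs of 0.22 to 0.51.

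Between stiff and soft substrates, cytosolic synthetases had mostly higher values at 120 kPa, but no member passed. In control cells 16 of 17 cytosolic and 10 of 15 mitochondrial members were above 0, with median log2 differences of 0.18 and 0.036 against -0.0055 over all genes. With the block the medians were 0.053 and 0.029. That block assumes the same shift for a replicate number at both stiffnesses, which was not examined. In siNemp1 cells the medians without the block were 0.20 and 0.017 against 0.022 over all genes. Members passing in the fit of all libraries numbered 0 in control (0.0143% of all genes) and 0 in siNemp1 (0% of all genes). At an unadjusted p under 0.05 stood 0 members in control (4.07% of all genes) and 4 in siNemp1 (LARS2, MARS2, NARS2 and SARS1; 11.8% of all genes). DESeq2 called no member in either, with 0.051% and 0.472% of all genes called; in siNemp1 it gave no adjusted p for 11 tested members, MARS2 and NARS2 among them. With no filter on low counts, 4 cytosolic members passed in siNemp1 by edgeR (GARS1, MARS1, SARS1 and YARS1, log2 0.67 to 0.84). That fit called 2.25% of all genes and gave SARS1 an SE of 0.17, against 0.32 with the filter.

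Among members averaging 5 CPM or more, the largest stiffness differences were those of SARS1, MARS1 and GARS1 in control and of SARS1, YARS1 and MARS1 in siNemp1. MARS2, below that level, differed by 0.86 ± 0.35 (SE) in siNemp1. SARS1 had a log2 difference of 0.61 ± 0.32 (SE) in control and 0.86 ± 0.32 (SE) in siNemp1, with every library at 120 kPa above every library at 10 kPa of the same treatment (edgeR adjusted p = 0.991 and 0.36). MARS1 lay at 141 and 136 CPM in control and 156 and 156 CPM in siNemp1 at 10 kPa, which gave 0.49 ± 0.33 and 0.73 ± 0.34 (SE). YARS1, which charges tyrosine, lay at 96.5 and 95.4 CPM in control and 89.8 and 89.7 CPM in siNemp1 at 10 kPa, and at 88.6, 108 and 149 and then 84.1, 122 and 241 CPM at 120 kPa. For YARS1 library 1 at 120 kPa lay below the 10 kPa libraries in both treatments and library 3 far above them. With the block the log2 difference in control was 0.17 for MARS1, -0.078 for YARS1 and 0.031 for GARS1, against 0.49, 0.26 and 0.42 without it. In siNemp1 it was 0.35, 0.29 and 0.25 in the same order, against 0.73, 0.73 and 0.69.

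GARS1 lay at 104, 165 and 230.3 CPM in control and 109, 158 and 286 CPM in siNemp1 at 120 kPa, also with library 1 below and libraries 2 and 3 above its values at 10 kPa. QARS1, which charges glutamine, went the other way: 248 and 252 CPM in control and 252 and 273.5 CPM in siNemp1 at 10 kPa, then 291, 223 and 187 and then 276.5, 229 and 168 CPM at 120 kPa. Its log2 difference in control was -0.098 ± 0.22 (SE), and 0.053 with the block.

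Among members averaging 5 CPM or more, the lowest differences in control were those of QARS1, IARS2 (-0.099 ± 0.13 SE) and EARS2 (-0.068 ± 0.16 SE), the last 2 being the mitochondrial isoleucyl- and glutamyl-tRNA synthetases. IARS2 in control lay at 64.4 and 64.2 CPM at 10 kPa and at 62.6, 64.1 and 53.6 CPM at 120 kPa, and EARS2 at 60.2 and 63.6 and then 58.8, 67.5 and 50.8 CPM. In siNemp1 IARS2 lay at 68.4 and 62.0 and then 59.8, 63.7 and 50.2 CPM, and EARS2 at 63.4 and 53.4 and then 53.5, 60.3 and 45.7 CPM. The libraries numbered 3 were the lowest for both genes. In siNemp1 the lowest differences at that level were those of LARS2 (-0.37 ± 0.14 SE), SARS2 (-0.32 ± 0.16 SE) and TARS2 (-0.23 ± 0.14 SE). TARS2 in siNemp1 lay at 54.6 and 54.6 CPM at 10 kPa and 53.5, 42.1 and 43.8 CPM at 120 kPa, against 53.5 and 50.5 and then 59.4, 49.3 and 46.1 CPM in control. SARS2 in siNemp1 lay at 23.4 and 20.1 CPM at 10 kPa, above all its values at 120 kPa.

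Groups at 120 and 10 kPa did not overlap in control for 5 members with higher values (LARS1, NARS2, SARS1, TARS1 and WARS1; 10.3% of all genes) and for IARS2 with lower ones (11.9% of all genes). In siNemp1 there were 7 with higher values (MARS1, MARS2, NARS1, NARS2, SARS1, TARS1 and YARS2; 18.2% of all genes) and 4 with lower ones (HARS1, LARS2, SARS2 and TARS2; 15.5% of all genes). SARS1, TARS1 and NARS2 stood in the higher lists of both treatments. These 2 comparisons share no library, but same-numbered libraries at 120 kPa deviated together, so they are not independent repeats. With the block the log2 difference in control was 0.27 for SARS1, 0.27 for NARS2 and -0.0035 for TARS1. In siNemp1 it was 0.50, 0.40 and 0.20 in the same order. Without both 120 kPa libraries numbered 3, a setting chosen after the data were seen, the cytosolic median was 0.12 in control and 0.078 in siNemp1, and the mitochondrial median 0.080 and -0.022.

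**Figure D4:**
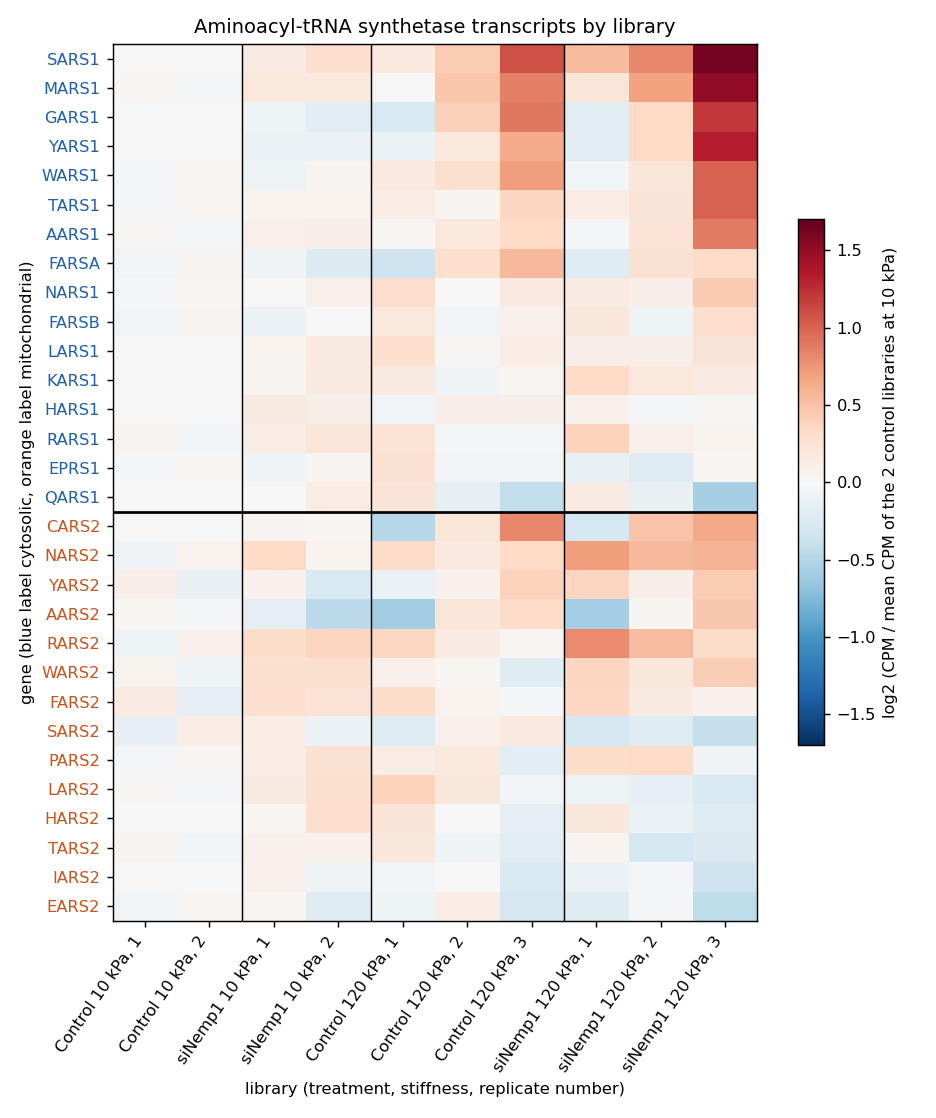
Log2 of each library's CPM over the mean of the 2 control libraries at 10 kPa for 30 members with a mean of at least 5 CPM; blue gene names are cytosolic and orange mitochondrial, and columns are libraries by treatment, stiffness and replicate number. The darkest red cells are SARS1, MARS1, GARS1 and YARS1 in siNemp1 library 3 at 120 kPa (766, 394, 286 and 241 CPM).

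The spread among the 120 kPa libraries was itself uneven between the sets. In both treatments the library numbered 3 was the highest of the 3 for 8 of 17 cytosolic members (AARS1, FARSA, GARS1, MARS1, SARS1, TARS1, WARS1 and YARS1) and 4 of 15 mitochondrial members (AARS2, CARS2, MARS2 and YARS2), and for TARS3; 21.7% of all genes did so. It was the lowest of the 3 in both treatments for 7 of 15 mitochondrial members (EARS2, FARS2, HARS2, IARS2, LARS2, PARS2 and RARS2) and 1 of 17 cytosolic members (QARS1), against 21.4% of all genes. Summed over the set, cytosolic members came to 3063, 3082 and 3619 CPM in control libraries 1 to 3 and 3091, 3275 and 4543 CPM in siNemp1 libraries 1 to 3.

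AARS1, WARS1 and TARS1 followed this pattern to different degrees. AARS1 lay at 333 and 322 CPM in control and 347 and 355 CPM in siNemp1 at 10 kPa, and at 331, 370.5 and 413 and then 322, 386 and 605 CPM at 120 kPa. WARS1, which charges tryptophan and is also induced by interferon, lay at 143 and 147, then 137 and 150.1, then 162, 175 and 237, and then 141, 167 and 290.1 CPM. TARS1, which charges threonine, lay at 128 and 133, then 136 and 136, then 143, 134 and 169, and then 143, 151 and 261 CPM. For all 3, siNemp1 library 3 at 120 kPa was the highest of all 10 libraries.

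The cytosolic members outside and in the multisynthetase complex differed in their medians but overlapped, and the difference was not tested. Among members with a mean of at least 5 CPM, the median log2 ratio of library 3 to library 1 at 120 kPa was 0.43 in control and 0.89 in siNemp1 for the 10 outside the complex, and -0.21 and -0.048 for the 6 in it (EPRS1, KARS1, LARS1, MARS1, QARS1 and RARS1). It was -0.26 and -0.20 for 14 mitochondrial members and 0.0047 and -0.034 for 9643 genes of that level. Summed, the members outside the complex came to 1675, 1871 and 2355 CPM in control and 1735, 1992 and 3103 CPM in siNemp1, and those in it to 1388, 1211 and 1264 CPM and 1357, 1282 and 1440 CPM. Within the complex MARS1 stood high, with ratios of 0.85 and 1.30. Outside it NARS1 (-0.14) and FARSB (-0.089) were below 0 in control, and HARS1 (-0.050) in siNemp1.

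**Figure D5:**
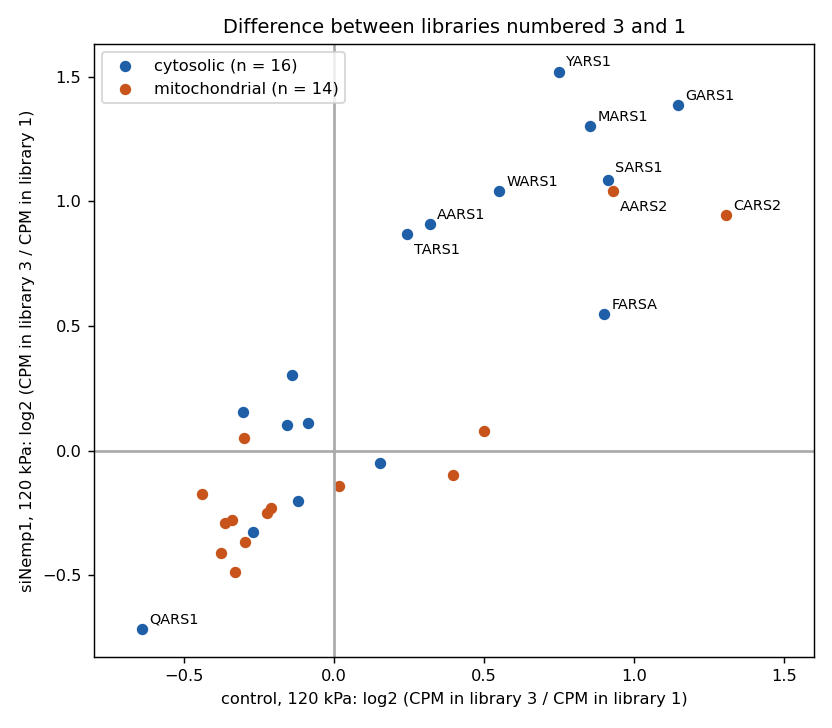
Log2 ratio of the library numbered 3 to that numbered 1 at 120 kPa, control on the x axis and siNemp1 on the y axis, for 16 cytosolic (blue) and 14 mitochondrial (orange) members. GARS1, YARS1, MARS1 and SARS1 lie at the upper right, most mitochondrial members at the lower left, and QARS1 is the lowest on both axes.

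Across the 30 members the ratios in control and siNemp1 had a Pearson correlation of 0.861, against 0.661 over the 9643 genes; genes within a library are not independent, and the points share libraries, so no test was made. Of the 8 cytosolic members highest in library 3 of both treatments, AARS1, GARS1, MARS1 and TARS1 carry the printed composite element. FARSA, SARS1 and WARS1 had no match, and YARS1 was not among the 30 members with a window. Over all cytosolic promoters with a window 7 of 16 held the element, and a relation between the element and these values was not tested.

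A list of 22 amino acid response genes, of which 21 were tested, moved with the same libraries. Among 19 of them with a mean of at least 5 CPM, the median log2 ratio of library 3 to library 1 was 1.45 in control and 1.21 in siNemp1. ASNS, asparagine synthetase, lay at 17.8 to 21.6 CPM at 10 kPa, at 20.1, 38.1 and 81.3 CPM in control and at 26.5, 56.4 and 146 CPM in siNemp1 libraries 1 to 3 at 120 kPa. TRIB3, a pseudokinase induced by amino acid shortage, lay at 18.0 to 21.3 CPM at 10 kPa and at 11.2, 51.7 and 112 and then 18.8, 60.8 and 169 CPM. ATF4 itself lay at 125, 143 and 173 and then 142, 161 and 195 CPM.

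PSAT1, an enzyme of serine synthesis, lay at 27.3 to 31.1 CPM at 10 kPa and at 30.5, 59.5 and 130 and then 38.8, 91.1 and 207 CPM at 120 kPa. None of the 21 genes passed in any comparison when all libraries were fitted. With no filter on low counts, edgeR called 8 of them higher at 120 kPa in control (ASNS, ATF3, CHAC1, DDIT3, PSAT1, SLC3A2, SLC7A5 and TRIB3; 0.675% of all genes) and 12 in siNemp1, the same 8 with DDIT4, EIF4EBP1, PPP1R15A and SLC7A1 (2.25% of all genes). Control library 1 at 120 kPa, however, lay below both control libraries at 10 kPa for DDIT3, SLC3A2, SLC7A5 and TRIB3. For ATF3, CHAC1 and PSAT1 it lay between them, and for ASNS above them. With no filter edgeR also called 4 of the list higher in siNemp1 than in control at 120 kPa (ASNS, DDIT3, PPP1R15A and PSAT1), where 2.73% of all genes were called. With the block in the 120 kPa libraries alone, edgeR called ASNS, PSAT1 and TRIB3 higher (log2 0.59, 0.53 and 0.49, adjusted p = 0.0221, 0.0223 and 0.0301). The last section counts all genes called in that fit. With the block over all 10 libraries, 0 of the 21 passed in this comparison. The median log2 difference of the 21 genes between 120 and 10 kPa was 0.49 in control and 0.86 in siNemp1, with 18 of 21 above 0 in each. With the block these medians were 0.14 and 0.43, and without both 120 kPa libraries numbered 3 they were 0.18 and 0.37. With siNemp1 against control it was 0.17 at 120 kPa, with 18 of 21 above 0, and -0.031 at 10 kPa, with 8 of 21 above 0. In the fit of the 10 kPa libraries alone, 1 of 21 was called higher (NUPR1) and 4 were called lower. These were ATF4, EIF2AK4, SLC7A1 and SLC7A5, which fell by 0.21, 0.32, 0.38 and 0.45 on the log2 scale. That fit called 17.3% of the genes it tested. At 120 kPa the share of counts from the mitochondrial genome was lowest, within each treatment, in the library numbered 3. The part of these accompanying values in the synthetase differences was not tested.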

How the data were processed

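Bulk RNA-seq of total RNA, with ribosomal RNA removed by an RNase H method and random hexamer priming per the labels' protocols, gave 1 library per sample. The authors deposited estimated counts per gene, not normalized. The submitters' processing notes list FastQC 0.11.9, Trimmomatic 0.33, Salmon 1.80, edgeR and GRCh38; the annotation and the strand setting are not stated there or in the labels. Each deposited expected count was rounded before testing.

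Genes were filtered with filterByExpr over the 4 groups, scaled by TMM and tested by edgeR 4.0.16 (robust quasi-likelihood, R 4.3.3, limma 3.58.1) with a mean for each group over all 10 libraries, which leaves 6 residual degrees of freedom. Benjamini-Hochberg adjustment covered all tested genes, with calls at an adjusted p under 0.05. The replicate number was an alternative block, fitted over all 10 libraries, those at 10 kPa included, unless a smaller set is named. At 120 kPa the deviations of same-numbered libraries from their group means correlated at 0.426, 0.157 and 0.359, all above 0.1, and these were taken as pairs on the data alone, since the labels do not say what the number marks; at 10 kPa the correlation was 0.0171. DESeq2 1.42.0, other scalings and filters, and leaving out libraries were also tried. Levels between genes were compared as CPM per kb of the APPRIS principal transcript in GENCODE 29. The scripts were tested on simulated data.

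The members and gene lists were chosen with earlier results of these data known. Values by library are given for members called in any of 3 fits (all libraries, replicate block, compared groups alone), for the 3 largest and 3 smallest differences per comparison among members averaging 5 CPM or more, and for the 3 highest per length in each set. Other genes were named where called or as examples of their list after their values were seen. Of 35 annotated members, 16 share exonic bases with a gene on the opposite strand and 6 with one on the same strand; 14 rows of member pseudogenes held at most 3 estimated counts.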

Additional observations from a re-analysis of the deposited data

Results flagged for a closer look

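LARS2 was singled out because siNemp1 and control differed in opposite directions at the 2 stiffnesses without overlap of libraries. At 10 kPa both siNemp1 libraries (43.5 and 47.3 CPM) lay above both control libraries (39.8 and 38.5 CPM). At 120 kPa the 3 siNemp1 libraries (36.9, 35.4 and 32.7 CPM) lay below the 3 control libraries (51.6, 44.6 and 38.0 CPM). Over all genes, groups did not overlap for 28.8% with higher and 28.5% with lower values in siNemp1 at 10 kPa. At 120 kPa these shares were 10.9% and 6.95%. The share of all genes without overlap in opposite directions was not counted, so LARS2 is described only. The difference between the knockdown effects, 120 minus 10 kPa, was -0.57 ± 0.20 (SE) on the log2 scale and did not pass in edgeR's quasi-likelihood test over all genes (adjusted p = 1, also with the replicate block, where it was -0.56).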

How the results depend on the processing

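The count of members called was 0 in each comparison in the fit of all libraries. It was 1 with the replicate block at 120 kPa (siNemp1 against control), 2 with the block in the 120 kPa libraries alone, and 4 with the block without pair 1 (MARS1, SARS1, TARS1 and YARS1); over all genes these fits called 1224, 1255 and 1552 against 0. It was 2 for the knockdown at 10 kPa in the 10 kPa libraries alone (2308 genes), 2 for the knockdown averaged over both stiffnesses with the block, and 4 for stiffness in siNemp1 with no filter on low counts (GARS1, MARS1, SARS1 and YARS1; 529 genes). The block changed no other count of member calls. The median log2 difference of cytosolic members between stiffnesses in control was 0.053 with the block, against 0.18. Leaving out each library in turn called 0 members throughout and moved the cytosolic medians over 0.096 to 0.22 (stiffness in control), 0.078 to 0.29 (stiffness in siNemp1), 0.032 to 0.099 (knockdown at 10 kPa) and -0.067 to 0.17 (knockdown at 120 kPa). The mitochondrial medians moved over 0.015 to 0.078, -0.047 to 0.067, 0.057 to 0.12 and -0.0041 to 0.089. QARS1 and EARS2 between stiffnesses in control changed sign, to 0.053 and 0.029 with the replicate block, and to 0.061 and 0.045 without both libraries numbered 3. With 1 library left out they ranged from -0.29 to 0.039 and from -0.18 to 0.026, the highest without control library 3 at 120 kPa. Likewise the knockdown difference of MARS1 at 120 kPa ranged from -0.051 to 0.65, and the differences between knockdown effects from -0.016 to 0.51 for AARS2 and from -0.10 to 0.74 for YARS1, the lowest each time without siNemp1 library 3 at 120 kPa. The cause of these changes was not tested. Of the other values, 229 summaries and 537 values of single members kept their direction and side of the threshold. Groups held 2 or 3 libraries, which limits the precision of each value; for CARS1, VARS1 and VARS2 the estimates are too low to compare.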
